A study of Mus musculus with 19 samples.

Results

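The effect of neuronal EZH2 deletion on the hippocampal transcriptome was measured at baseline, in mice that had received saline and no convulsant. The comparison set the 5 EZH2nHom saline libraries against the 5 WT saline libraries, 10 of the 19 libraries in the study, and the libraries were chosen by their labels alone. The study as a whole asked about EZH2 after status epilepticus, and its other 9 libraries come from kainate-treated mice of the same genotypes. Both groups were C57BL6 mice that carried the Synapsin1-Cre driver, labelled Syn1Cre(+/-), received saline intraperitoneally and were sampled on day 4. WT mice were EZH2(+/+) and therefore Cre-positive controls, whereas EZH2nHom mice were EZH2(-/-) in the labels, with floxed alleles that are deleted where the driver is active. Synapsin1-Cre is active in neurons, so glia, vessels and other non-neuronal cells of an EZH2nHom hippocampus are intended to keep the gene. Ages and sexes are not given in the sources used here. Samples are labelled as right hippocampus, while the design text speaks of whole hippocampi. The tissue was flash frozen and extracted with Trizol, and cytoplasmic and mitochondrial ribosomal RNA was depleted before sequencing. Libraries of a group are numbered as replicates without a statement that each is a separate animal, so p-values measure the spread between these libraries.

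EZH2 is the catalytic subunit of Polycomb repressive complex PRC2, which methylates histone H3 at lysine 27 together with EED, SUZ12 and histone-binding RBBP proteins. The mark is read by CBX proteins of PRC1 and keeps developmental regulators such as the Hox genes silent. In mature neurons the related enzyme EZH1 is the more abundant methyltransferase of the complex, and EZH2 is better known from neural progenitors.

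Total reads ran from 26607591 to 33649565 in WT and from 26114855 to 41404459 in EZH2nHom libraries. The leading principal component of log2 CPM (CPM, reads divided by the effective library size from TMM) held 33.2% of the variance and separated the genotypes, with WT libraries from -40.8 to -10.5 and EZH2nHom libraries from 11 to 40.9. All 20 dentate granule cell, 15 CA1 and 21 CA3 and CA2 markers listed passed the low-count filter, as did 20 of 20 neocortex and 17 of 18 striatum markers, so the filter alone does not set the tissue apart. Other properties of the libraries moved with genotype. Signal recognition particle RNA, a structural RNA of protein secretion that ribosomal depletion does not target, took 4.07% to 5.51% of WT reads and 9.96% to 17.2% of EZH2nHom reads. 7SK RNA, which holds back transcription elongation, took 0.663% to 0.978% and 2.1% to 3.18%. Mitochondrial ribosomal RNA went the other way, at 6.2% to 7.4% in WT and 4.02% to 5.3% in EZH2nHom. No prefix of a sample code occurred in both genotypes, and what the prefixes stand for is not given in the sources used here. Genotype, code prefix and these RNA shares cannot be told apart in these libraries. Other properties varied within groups. Summed choroid plexus markers, which come from the tissue lining the ventricle, were 1010, 415, 4680, 6720 and 243 CPM in WT replicates 1 to 5 and 5190, 401, 6000, 6810 and 323 CPM in EZH2nHom replicates 1 to 5. Xist was read, with Y-linked genes at or near 0, in WT replicates 1 and 2 only.

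**Figure D1:**
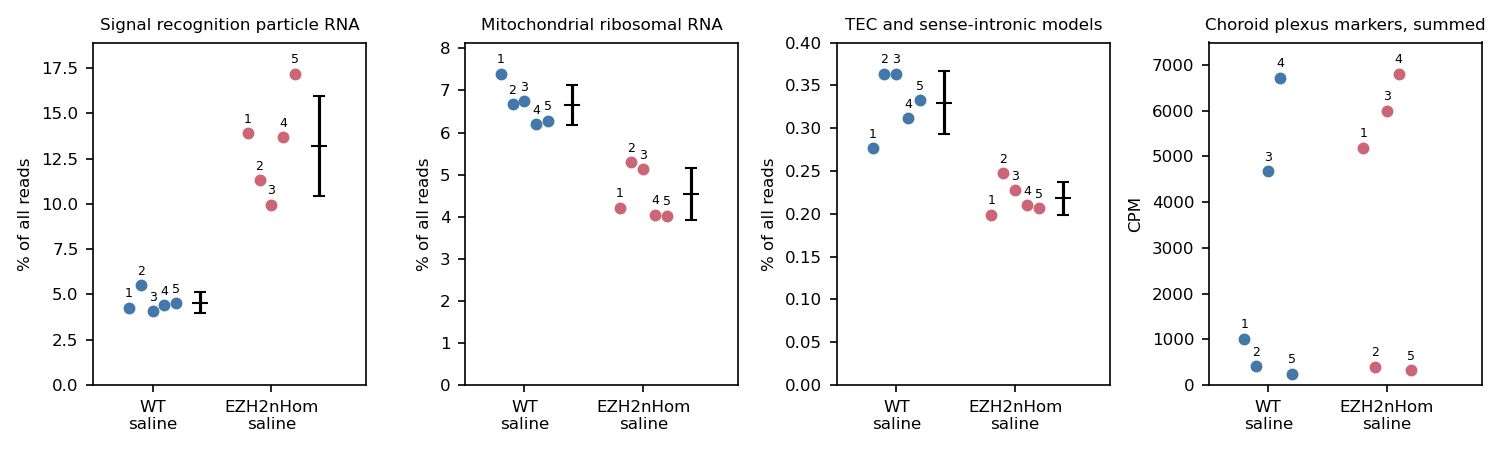
Share of all reads on signal recognition particle RNA, mitochondrial ribosomal RNA and models annotated as TEC or sense-intronic (left 3 panels, %), and summed CPM of the choroid plexus markers (right panel), in the 5 WT and 5 EZH2nHom saline libraries. Points are libraries with their replicate numbers, and bars in the left 3 panels are mean ± SD (n = 5). The genotypes do not overlap in the left 3 panels and overlap in the right panel.

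Ezh2 RNA was not lower in the libraries labelled EZH2nHom. It stood at 11.1, 13, 11.6, 11.2 and 9.73 CPM in WT replicates 1 to 5 and at 15.2, 14.1, 11.7, 13.6 and 12.6 CPM in EZH2nHom replicates 1 to 5. The groups overlapped, and all 5 EZH2nHom libraries lay above 4 of the 5 WT libraries. The log2 difference was 0.25 ± 0.09 (SE), with an adjusted p of 0.0598 in edgeR's quasi-likelihood test, and an exact two-sided permutation test over the 252 relabellings gave p = 0.0317. The value crossed the threshold under some settings, among them the DESeq2 Wald test (0.26, adjusted p = 0.0421) and leaving out WT replicate 2 (0.30, adjusted p = 0.0344) or EZH2nHom replicate 3 (0.30, adjusted p = 0.0321). Gene-level counts pool all exons and all cell types, and the sources used here do not say which exons are floxed, so this count does not check the genotype labels. Genotypes are given as labelled throughout. In bulk tissue, fewer cells of a type and less RNA per cell cannot be told apart.

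Across all genes, 5604 of 17814 tested (31.5%) passed an adjusted p under 0.05 in edgeR's quasi-likelihood test, 2891 higher (16.2%) and 2713 lower (15.2%) in EZH2nHom. These percentages are the background for every count below. Most of the differences were small: the median absolute log2 difference of the genes that passed was 0.38, and 370 of them (6.6%) differed by 2-fold or more, 112 higher and 258 lower. Groups did not overlap in CPM for 3815 of the genes that passed, and for 3959 of all genes tested (22.2%). The count depended on how structural RNA entered the model. With the share of reads on the structural RNA list as a covariate, 52 genes passed, and with the share of all structural RNA models 697 passed. These shares do not overlap between the genotypes and moved in opposite directions. The list lacks the signal recognition particle and 7SK models counted above. Its share was 6.27% to 7.47% in WT and 4.44% to 5.51% in EZH2nHom, near that of mitochondrial ribosomal RNA. The share of all models was 11.51% to 13.15% in WT and 17.5% to 24.81% in EZH2nHom. The median SE of a log2 difference rose from 0.106 to 0.254 with the list and 0.261 with all models. The median absolute log2 difference over all genes tested did not shrink, at 0.211 without a covariate, 0.267 with the list and 0.341 with all models. A fit to all 19 libraries, whose spread includes the more variable kainate libraries, left 2596 genes. Without the 2 WT libraries with Xist reads the count was 3801. Of the genes named with values, those that kept the call with the structural RNA list as a covariate were Rn7s6, Lars2, Fmc1, Rpl37rt, Atp5e, Upf3b, Neurod6, Rps20, Rps19, Rpl13, Ndufa2, mt-Nd1 and mt-Cytb.

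**Figure D2:**
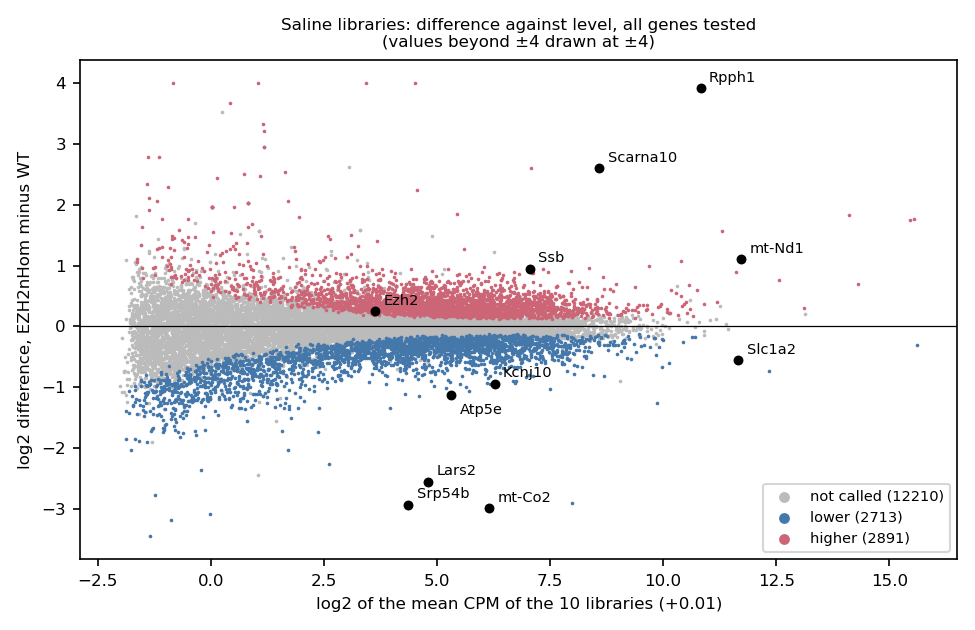
Log2 difference of EZH2nHom against WT (vertical axis) by log2 mean CPM of the 10 saline libraries (horizontal axis) for the 17814 genes tested, coloured by call. Ezh2 lies near the zero line, Rpph1 and Scarna10 are among the highest and mt-Co2, Srp54b and Lars2 among the lowest of the named genes.

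Of 13 PRC2 subunits and cofactors measured, 1 rose, 3 fell and the median log2 difference was 0.01, beside a median of -0.01 over all genes tested. The share that passed was close to the 31.5% of all genes. Among the core subunits, Ezh1, Eed and Suz12 did not pass, with log2 differences of -0.03, 0.03 and 0.13, while Rbbp4, given below, fell. Mtf2, a DNA-binding cofactor that recruits the complex, stood at 38.3, 40.8, 38.6, 36.6 and 39.3 CPM in WT and 48.2, 51.7, 47.1, 45.3 and 47.3 CPM in EZH2nHom. Every EZH2nHom library was above every WT library, and the rise was 0.31 ± 0.05 (SE) on the log2 scale (edgeR adjusted p = 0.000755). Rbbp4, the histone-binding subunit that PRC2 shares with other chromatin complexes, stood at 117, 108, 108, 108 and 105 CPM in WT and 95.5, 88.3, 91.0, 81.1 and 87.3 CPM in EZH2nHom. Its fall was -0.30 ± 0.05 (SE; edgeR adjusted p = 0.000817), again without overlap. The other falls were in Epop, a cofactor that links PRC2 to elongin (-0.37), and Ezhip, an inhibitor of the complex read at 0.456 to 0.665 CPM in WT and 0.147 to 0.453 CPM in EZH2nHom (-1.07). None of these 4 passed in the fit to all 19 libraries. Epop differed by -0.19 after a correction for GC content and length and did not pass.

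PRC1 moved in both directions, with 3 of 22 measured members higher, 5 lower and a median of -0.07. Over all genes 16.2% were higher and 15.2% lower. Rnf2, its ubiquitin ligase, rose by 0.39 on the log2 scale, from 42.1 ± 2.88 to 55.1 ± 6.09 CPM (SD, n = 5). Phc3, a polyhomeotic subunit, fell by 0.40, from 94.5 ± 6.1 to 71.7 ± 3.25 CPM, without overlap. Cbx6, a reader of the mark, fell by 0.53, and Scmh1 by 0.33. In the fit to all 19 libraries, 1 member was higher and 3 were lower.

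Of the enzymes that oppose PRC2, more fell than rose. Of 12 measured demethylases, MLL-type methyltransferases and acetyltransferases, 7 fell, 0 rose and the median was -0.28. Kmt2a, which methylates histone H3 at lysine 4, stood at 106, 129, 121, 96.6 and 127 CPM in WT and 67.8, 82.7, 65.6, 81.0 and 92.7 CPM in EZH2nHom. The groups did not overlap, and the fall was -0.57 ± 0.11 (SE; edgeR adjusted p = 0.00162). Kmt2d fell by 0.75, Ep300, a histone acetyltransferase, by 0.37, Kmt2c by 0.31 and Ash1l by 0.19. Kdm6b, which removes the mark that PRC2 lays down, read 5.79 ± 0.775 CPM in WT and 3.79 ± 1.14 CPM in EZH2nHom (SD, n = 5), a fall of 0.61 with overlap between groups. After a correction for GC content and length 4 of the 12 were lower, and in the fit to all 19 libraries also 4. Under that correction Kmt2d differed by -0.29 (edgeR adjusted p = 0.105) and Ep300 by -0.17 (edgeR adjusted p = 0.0771), so both lost the call, and Kmt2a and Kmt2c fell by 0.35 and 0.15. Without the 2 WT libraries with Xist reads 3 were lower. The count was 4 without WT replicate 2, WT replicate 5 or EZH2nHom replicate 2, and 3 without EZH2nHom replicate 3. Ash1l lost its call without EZH2nHom replicate 3 (adjusted p = 0.0509). Kdm6b lost it without WT replicate 2 or 5 or EZH2nHom replicate 2 or 3 (adjusted p from 0.0502 to 0.0581). Kmt2d lost it without any of 6 libraries (WT replicates 2, 3 and 5, EZH2nHom replicates 1, 2 and 3; adjusted p from 0.0519 to 0.0642).

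Hox genes, classical Polycomb targets, stayed at the edge of detection in both genotypes. None of the 39 Hox genes passed the low-count filter, 24 of them had no read in any of the 10 libraries, and all 39 together gathered 5 to 8 reads per WT library and 2 to 10 per EZH2nHom library. Of 149 further developmental regulators that Polycomb commonly silences, 109 lay below the filter, and their reads summed to 154 to 262 per WT library and 138 to 331 per EZH2nHom library. Any Hox or developmental transcription at levels below these reads was not detectable at this depth. Among the 40 that were measured, 1 was higher, 2 were lower and the median was 0.06, against 16.2% and 15.2% of all genes. Without EZH2nHom replicate 4, 0 were higher and 4 lower. Nkx2-2, a factor of the oligodendrocyte lineage, rose by 0.60 from 1.12 ± 0.213 to 1.70 ± 0.302 CPM (SD, n = 5). Dbx2, an astrocyte and progenitor homeobox gene, fell by 0.35, and Foxc2, a forkhead factor of mesenchyme, read under 0.5 CPM in every library and fell by 1.19. Without the 2 WT libraries with Xist reads, Dbx2 and Foxc2 lost the call (adjusted p = 0.0604 and 0.0603). The Nkx2-2 call was lost without any of 5 libraries (WT replicates 3 and 5, EZH2nHom replicates 3, 4 and 5; adjusted p from 0.0516 to 0.0655). Of 7 measured cell-cycle inhibitors and senescence genes, Cdkn1b, the p27 inhibitor, rose by 0.22 and Lmnb1, a nuclear lamin, by 0.38. Cdkn1c had 613 reads in all WT libraries together and 1484 in EZH2nHom. It had 46 to 291 reads per WT library and 114 to 447 per EZH2nHom library, with overlap, and did not pass. By replicate it read 59, 56, 161, 291 and 46 in WT and 394, 114, 368, 447 and 161 in EZH2nHom. With choroid plexus level as a covariate, chosen after seeing the data, 3 of the 7 genes on this list were higher. Cdkn2a, below the filter, had 3 reads in all WT libraries together and 0 in EZH2nHom. Cdkn1b differed by 0.13 after the correction for GC content and length and did not pass. In developmental signalling, 2 of 39 measured Wnt, BMP, TGF-beta and Hedgehog ligands and antagonists were higher and 2 lower.

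Small structural RNAs took the top 10 places by size of rise among genes with a named symbol, a mean of at least 1 CPM and no overlap in CPM between the groups; predicted models are described further on. Rpph1, the RNA of ribonuclease P, which processes transfer RNA, stood at 191, 195, 223, 148 and 381 CPM in WT and 1398, 1375, 1434, 6886 and 5937 CPM in EZH2nHom. All EZH2nHom libraries were higher than all WT libraries, but replicates 4 and 5 were more than 4 times the other 3, and the log2 difference was 3.91 ± 0.65 (SE; edgeR adjusted p = 0.00263). Scarna10, a guide RNA of the Cajal body, stood at 126, 140, 109, 70.3 and 101 CPM in WT and 769, 495, 603, 694 and 740 CPM in EZH2nHom. That rise of 2.60 ± 0.19 (SE; edgeR adjusted p = 1.34e-05) was steadier between libraries. Rnu12, the U12 RNA of the minor spliceosome, rose by 3.2, copies of U1 by 2.95 and 2.60, a 7SK model by 2.53 and Rn7s6 by 2.47. Bc1, a brain cytoplasmic RNA that represses translation at dendrites, rose by 2.07, from 1.26 ± 0.206 to 5.28 ± 1.82 CPM (SD, n = 5). Snora74a rose by 2.24, and lies wholly within its host gene Snhg4, which did not pass. A model of U3, which guides ribosomal RNA processing, rose by 2.02. Of the 17 measured members of the structural RNA list, 9 were higher, 5 lower and the median was 0.94. Many of these RNAs exist in near-identical copies, so reads may be split among models in ways that the sources used here do not describe.

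Several of the deepest falls lay in models that share sequence with another gene, and the partner rose. The mitochondrial gene mt-Co2, a cytochrome oxidase subunit, read 126 ± 56.7 CPM in WT and 15.9 ± 12.9 CPM in EZH2nHom (SD, n = 5; log2 difference -2.98). Together with Gm28661, which holds 99.5% of its 32-base sequence words, it summed to 4640 ± 163 CPM in WT and 7636 ± 1086 CPM in EZH2nHom. mt-Atp6 fell by 1.26 and its sum with Gm10925 went from 2596 ± 89.6 to 4337 ± 694 CPM. Srp54b, a copy of the protein subunit of the signal recognition particle, fell by 2.92, while the 3 copies Srp54a, Srp54b and Srp54c together went from 204 ± 26.6 to 299 ± 43.6 CPM. Rab43, a small GTPase of the Golgi, fell by 2.25, and its sum with the overlapping Gm45140 was 19.8 ± 0.79 in WT and 18.8 ± 1.93 CPM in EZH2nHom. For these genes the fall of the named model was not a fall of the combined reads.

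Lars2, Atp5e, Fmc1 and Eif4ebp2 fell too, and each shared under 1% of its 32-base words with other models. Lars2, the mitochondrial leucyl-tRNA synthetase, stood at 25.5, 44.1, 57.8, 58.1 and 52.1 CPM in WT and 9.19, 7.94, 7.14, 8.40 and 7.97 CPM in EZH2nHom. The lowest WT library was more than 2-fold above the highest EZH2nHom library, and the log2 difference was -2.55 ± 0.21 (SE; edgeR adjusted p = 2.1e-05). Atp5e, the epsilon subunit of ATP synthase, stood at 58.4, 48.9, 53.6, 58.1 and 53.6 CPM in WT and 26.2, 21.8, 24.9, 26.9 and 25.5 CPM in EZH2nHom (log2 -1.12 ± 0.07, SE). Fmc1, an assembly factor of the same enzyme, stood at 7.98, 7.07, 7.29, 7.67 and 7.38 CPM in WT and 3.45, 2.40, 2.62, 3.05 and 3.28 CPM in EZH2nHom (-1.33). Eif4ebp2, the main neuronal brake on cap-dependent translation, stood at 31.2, 36.7, 36.1, 27.4 and 35.3 CPM in WT and 14, 15.6, 13.7, 15.3 and 16.6 CPM in EZH2nHom. Its groups were likewise far apart, and its fall was -1.15 ± 0.09 (SE; edgeR adjusted p = 3.53e-06). Snord94, a small nucleolar RNA, fell by 1.72 and Rpl37rt, a retrocopy of a ribosomal protein gene that shares 47.1% of its sequence words with other models, by 1.33.

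Protein-coding genes with little exon overlap with another model on the same strand were also listed by size of difference. The list was kept to genes with at least 5 CPM, a choice made after values were seen. Shared sequence words were not a condition, so reads of its genes may still be split with other models. Ssb, the La protein that binds the ends of RNA polymerase III transcripts such as Rpph1, stood at 94.1, 93.5, 80.7, 87.1 and 97.5 CPM in WT and 204, 178, 170, 157 and 166 CPM in EZH2nHom. The rise was 0.95 ± 0.07 (SE; edgeR adjusted p = 3.53e-06), with no overlap. Upf3b, a nonsense-mediated decay factor, stood at 14.9, 14.7, 13, 15.4 and 15.3 CPM in WT and 28.5, 29.3, 29.7, 28.9 and 25.2 CPM in EZH2nHom, also a rise of 0.95. Neurod6, a transcription factor of pyramidal neurons, stood at 146, 120, 112, 123 and 118 CPM in WT and 266, 243, 237, 207 and 194 CPM in EZH2nHom. Its rise of 0.89 ± 0.09 (SE; edgeR adjusted p = 2.13e-05) separated the groups fully. Fam122a, an inhibitor of protein phosphatase 2A, rose by 1.08, Cenpx, of the Fanconi anaemia and centromere complexes, by 1.06 and Nucb2, the precursor of nesfatin, by 0.94.

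The lower end of the same list included Crtc1, a coactivator of CREB, which fell by 1.05, and the genes of several synaptic proteins. Bsn, the presynaptic scaffold bassoon, stood at 208, 241, 237, 195 and 320 CPM in WT and 80.5, 105, 89.5, 130 and 189 CPM in EZH2nHom. Shank3, a postsynaptic scaffold, stood at 59.8, 68.6, 67.6, 64.4 and 73.0 CPM in WT and 21.3, 29.2, 25.9, 48.7 and 43.3 CPM in EZH2nHom. Neither gene overlapped between groups, and both were highest among EZH2nHom libraries in replicates 4 and 5. The log2 differences were -1.02 ± 0.25 for Bsn and -0.99 ± 0.21 (SE) for Shank3, with edgeR adjusted p of 0.0126 and 0.00666. After the correction for GC content and length they were -0.60 and -0.68. Shank1 and Shisa6, an AMPA receptor partner, both fell by 0.95, and Shank1 by 0.61 after the correction.

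**Figure D3:**
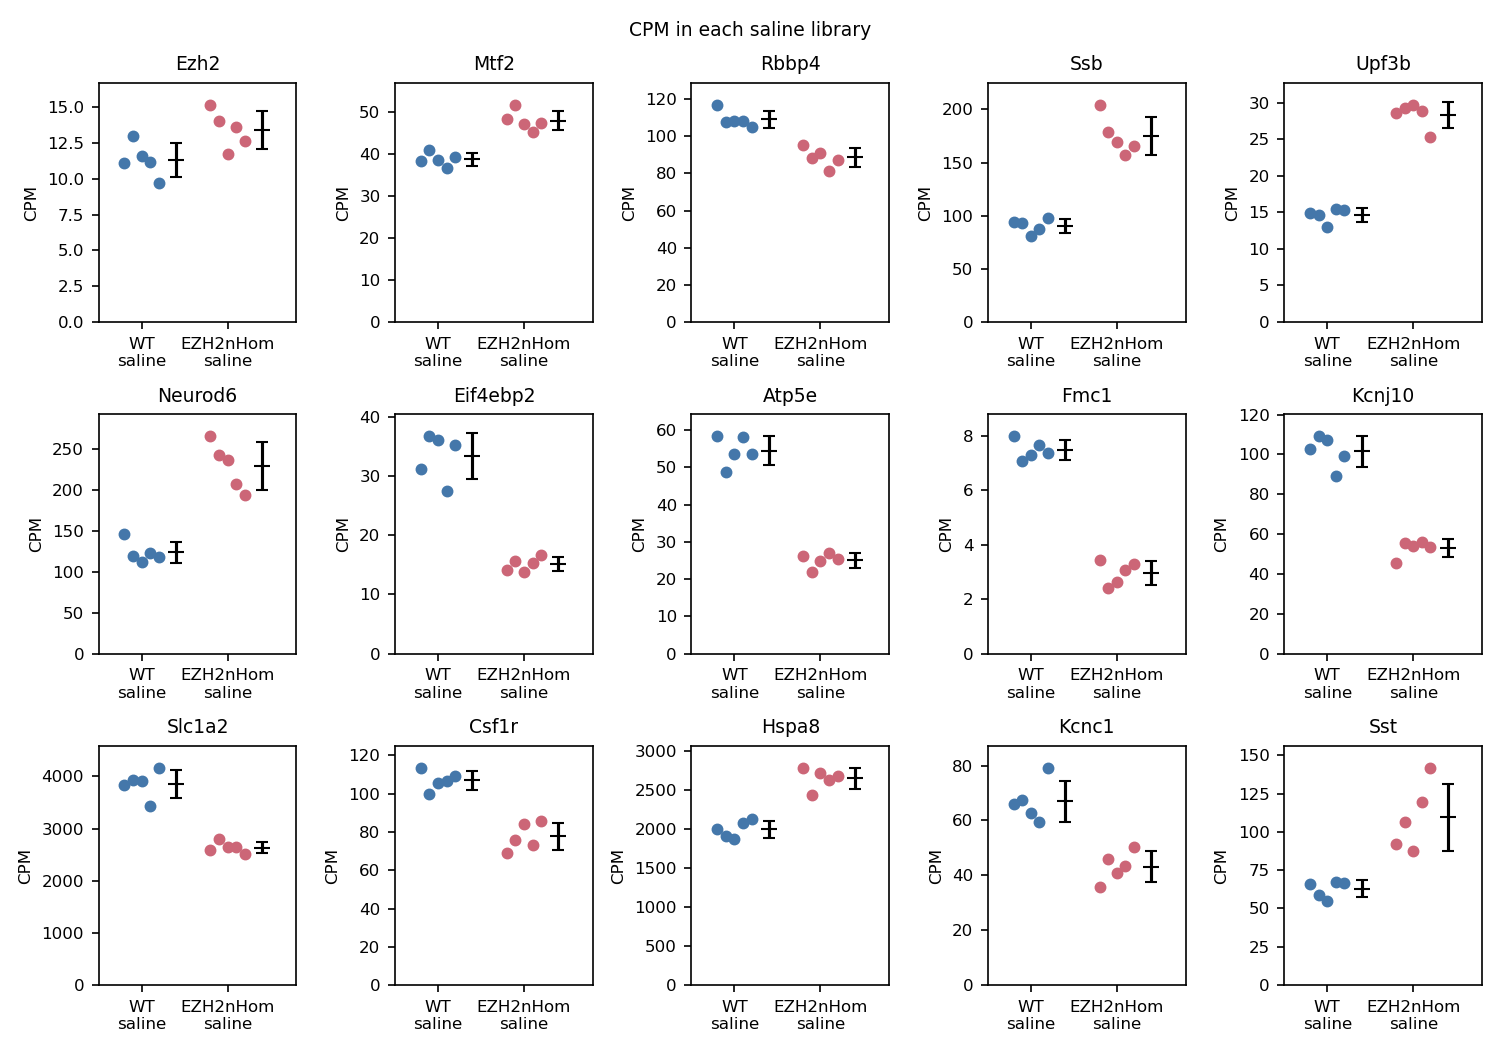
CPM of 15 named genes in each WT (blue) and EZH2nHom (red) saline library, with the mean ± SD of each group (n = 5) to the right of its points; each panel has its own axis from 0. Only Ezh2 overlaps between the genotypes among the genes drawn.

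Ribosomal protein genes changed often but without a common direction. Of 59 measured genes of the cytosolic ribosome, 16 rose, 20 fell and the median was -0.11. Rps20 stood at 98.9, 85.5, 87.5, 91.2 and 88.6 CPM in WT and 49.8, 44.4, 47.3, 47.4 and 49.6 CPM in EZH2nHom. The fall of 0.92 was large beside the spread within each group (SE 0.05, edgeR adjusted p = 1.12e-06). Rps27 fell by 0.90, Rps19 by 0.66 and Rpl13 by 0.66. Rpl22l1, a ribosomal protein paralog outside the list, read 48.7 ± 5.99 CPM in WT and 24.3 ± 3.89 CPM in EZH2nHom (SD, n = 5). Rps26 went the other way, from 43.9 ± 3.42 to 86.6 ± 11.7 CPM (SD, n = 5; log2 0.98). Ribosomal protein genes have processed pseudogenes that can take some of their reads. Rps26 shared 19.4% of its 32-base words with other models and Rps20 shared 9.85%. Fitted to all 19 libraries, 9 were higher and 15 lower.

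Genes of the respiratory chain in the nucleus were likewise divided, with 10 of 40 higher, 9 lower and a median of -0.02. Cox6c, a subunit of cytochrome oxidase, rose from 173 ± 12.3 to 323 ± 45.1 CPM (SD, n = 5; log2 0.90), whereas Cox8a and Cox5b of the same complex fell by 0.61 and 0.51. Ndufa2, of complex I, fell by 0.69. Transcripts of the mitochondrial genome were mostly higher, with 7 of 13 up, 2 down (mt-Co2 and mt-Atp6, above) and a median of 0.35. mt-Nd1, a complex I subunit, stood at 2227, 2260, 2159, 2056 and 2016 CPM in WT and 5309, 5217, 4406, 4022 and 4169 CPM in EZH2nHom. That is a rise of 1.11 ± 0.09 (SE; edgeR adjusted p = 3.53e-06) with no overlap. mt-Nd2 rose by 0.98 and mt-Cytb by 0.90. The mitochondrial ribosomal RNAs moved in the opposite direction in the same libraries, and the part of ribosomal RNA depletion in either was not tested.

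Of 25 measured heat shock and unfolded protein response genes, 12 rose, 0 fell, 13 did not pass and the median was 0.22. Hspa8, the constitutive cytosolic HSP70, stood at 2003, 1909, 1880, 2080 and 2126 CPM in WT and 2790, 2442, 2719, 2628 and 2681 CPM in EZH2nHom. The rise was 0.41 ± 0.06 (SE; edgeR adjusted p = 0.000252), and no library overlapped. The mitochondrial chaperonins Hspd1 and Hspe1 rose by 0.40 and 0.44, and Hsp90b1 of the endoplasmic reticulum by 0.50. In the fit to all 19 libraries 7 were higher. With the structural RNA list as a covariate 0 were and the median was 0.08, and with all structural RNA models 1 was and the median was 0.32.

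Cholesterol synthesis genes showed 7 of 24 higher and 1 lower, with a median of 0.11. Cyp51, the sterol demethylase, went from 69.9 ± 6.24 to 100.3 ± 11.6 CPM (SD, n = 5; log2 0.52). Fdft1, Pmvk and Sc5d, further enzymes of the pathway, rose by 0.33, 0.35 and 0.30. Without EZH2nHom replicate 5 the counts were 6 higher and 4 lower, and 3 were higher in the fit to all 19 libraries. Among 27 measured replication-dependent histone genes 5 rose and 0 fell, with H2bc18 at 1.14 and H4c14 at 0.93. The share that rose was near the 16.2% of all genes. Their RNAs lack poly(A) tails and are captured by ribosomal depletion. The number higher was 2 or 3 without any 1 of the 5 WT libraries or of EZH2nHom replicates 4 and 5. Apoptosis and p53 genes were divided, with 4 of 28 higher and 6 lower. Casp9, the initiator caspase of the mitochondrial pathway, fell from 17.7 ± 0.542 to 11.6 ± 0.61 CPM (SD, n = 5; log2 -0.61) and Zmat3, a p53 target, by 0.70. Bak1, a pore-forming death effector, rose by 0.63 and Mcl1, a survival factor, by 0.35. The number lower was 3 without WT replicate 5, EZH2nHom replicate 3 or EZH2nHom replicate 4.

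Glial markers differed as well. Of 18 measured astrocyte markers, 10 fell, 0 rose and the median was -0.18. Kcnj10, the inward rectifier that buffers potassium, stood at 103, 109, 107, 89.2 and 99.0 CPM in WT and 45.3, 55.7, 54.0, 56.2 and 53.7 CPM in EZH2nHom. The fall was -0.94 ± 0.07 (SE; edgeR adjusted p = 3.11e-06). Slc1a2, the main glutamate transporter, stood at 3837, 3928, 3913, 3430 and 4167 CPM in WT and 2587, 2791, 2645, 2641 and 2505 CPM in EZH2nHom. No library of one genotype reached the range of the other, and the fall was -0.55 ± 0.06 (SE; edgeR adjusted p = 4.52e-05). Slc4a4, a bicarbonate cotransporter, fell by 0.45. Summed over the list, astrocyte markers stood at 9520 to 10200 CPM in WT and 7420 to 8160 CPM in EZH2nHom. Slc1a2 alone made up a large part of these sums, and 8 of the 18 markers did not pass. Fitted to all 19 libraries, 7 of the 18 were lower. Reactive astrocyte genes showed 1 of 21 higher and 1 lower.

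Homeostatic microglia markers had 10 of 20 lower and 1 higher, with a median of -0.21. Csf1r, the receptor that microglia need for survival, stood at 114, 99.9, 106, 107 and 109 CPM in WT and 69.1, 76.0, 84.2, 73.0 and 86.0 CPM in EZH2nHom. The groups did not overlap, and the fall was -0.46 ± 0.06 (SE; edgeR adjusted p = 0.000153). Tmem119 fell by 0.51 and Cx3cr1, the fractalkine receptor, by 0.32, while P2ry12, a purinergic receptor of the same cells, rose by 0.35 with overlap. Their sum was 643 to 723 CPM in WT and 548 to 613 CPM in EZH2nHom. None passed in the fit to all 19 libraries, and 5 were lower without the 2 WT libraries with Xist reads. Activated microglia genes showed 2 of 17 higher and 2 lower, and type I interferon response genes 1 of 27 each way.

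Of 22 measured oligodendrocyte genes, 5 were up, 1 was down and the median was 0.15, beside 16.2% higher and 15.2% lower over all genes. Mal stood at 379, 435, 450, 337 and 305 CPM in WT and 739, 549, 817, 436 and 535 CPM in EZH2nHom. It rose by 0.69 ± 0.18 (SE; edgeR adjusted p = 0.014), with EZH2nHom replicate 4 inside the WT range. Mobp and Ermn, also of myelin, rose by 0.55 and 0.47, but Myrf, the transcription factor that drives myelin genes, fell from 29.9 ± 4.82 to 17.7 ± 2.25 CPM (SD, n = 5; log2 -0.76). The number higher was 2 or 3 without any 1 of 8 libraries, all but WT replicate 3 and EZH2nHom replicate 4. Ermn lost its call without WT replicate 4 or EZH2nHom replicate 1, 2 or 3 (adjusted p from 0.0544 to 0.0714). Among precursor genes 3 of 14 were higher and 3 lower, or 1 and 5 without EZH2nHom replicate 5. Endothelial markers had 4 of 18 lower and 0 higher, a count that was 1 or 2 without WT replicates 2, 3, 4 or 5 or EZH2nHom replicates 4 or 5. None of 20 choroid plexus, 14 ependymal and 15 meningeal markers passed in edgeR's quasi-likelihood test, while the choroid plexus median was 0.54 with the wide spread between libraries given above. With choroid plexus level as a covariate, chosen after seeing the data, 6086 genes passed.

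Markers of hippocampal cell types passed in both directions. Of 20 dentate granule cell markers 1 rose and 3 fell, of 15 CA1 markers 2 fell, and of 21 CA3 and CA2 markers 3 rose and 4 fell. Pcp4, a calmodulin-binding protein of CA2, stood at 65.2, 72.5, 73.0, 60.7 and 71.3 CPM in WT and 112, 96.5, 108, 96.5 and 99.6 CPM in EZH2nHom. The rise was 0.58 ± 0.07 (SE; edgeR adjusted p = 3.16e-05), without overlap. Among the others, Cntn6, an adhesion molecule, rose by 0.44, and Pdzd2, Bok, Fibcd1 and Mpped1 fell by 0.57, 0.56, 0.39 and 0.27. After the correction for GC content and length Pdzd2 differed by -0.24 (edgeR adjusted p = 0.0502) and Fibcd1 by -0.23 (edgeR adjusted p = 0.102). Mpped1 lost its call without the 2 WT libraries with Xist reads (adjusted p = 0.0605). The number of CA3 and CA2 markers lower was 2 without WT replicate 3 or 5, and that of CA1 markers was 4 without EZH2nHom replicate 5.

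GABAergic interneuron markers had 7 of 28 lower and 2 higher, with a median of 0.01. Sst, the peptide somatostatin, stood at 66.2, 58.5, 55.2, 67.2 and 66.7 CPM in WT and 92.0, 107, 87.3, 120 and 142 CPM in EZH2nHom. All EZH2nHom libraries were above all WT libraries, and the rise was 0.80 ± 0.12 (SE; edgeR adjusted p = 0.000648). Gad1, which makes GABA, fell from 283 ± 13.8 to 234 ± 5.46 CPM (SD, n = 5; log2 -0.27). In the fit to all 19 libraries 1 marker was higher and 2 were lower.

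More ion channel genes fell than rose. Of 37 voltage-gated channel genes, 13 fell, 1 rose and the median was -0.18. Kcnc1, a potassium channel of fast-spiking neurons, stood at 65.9, 67.5, 62.8, 59.6 and 79.2 CPM in WT and 35.6, 45.9, 40.8, 43.2 and 50.4 CPM in EZH2nHom. The groups stood apart and the fall was -0.63 ± 0.09 (SE; edgeR adjusted p = 0.000281), or -0.38 after the correction for GC content and length. Kcnc2, of the same family, fell by 0.42, and the T-type calcium channel Cacna1i by 0.63. With the GC content and length correction 8 of the 37 were lower, and in the fit to all 19 libraries 6 were. Glutamate and GABA receptors went both ways, with 5 of 36 higher and 7 lower. Gabra5, an alpha subunit of the GABA-A receptor, rose by 0.42, whereas Grin2a, an NMDA receptor subunit, fell from 771 ± 67 to 579 ± 52.6 CPM (SD, n = 5; log2 -0.41). In the fit to all 19 libraries 2 were higher and 1 was lower.

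Vesicle and release genes were balanced at 6 of 28 higher and 6 lower. Snap25, a SNARE of vesicle fusion, and Rims2, an active zone protein, rose by 0.34 and 0.27, and Syt7 and Cplx2, regulators of release, fell by 0.36 and 0.34. The number lower ranged from 3, without replicate 1 or 3 of either genotype, to 10, without EZH2nHom replicate 5, and in the fit to all 19 libraries 0 were higher and 1 was lower. Clustered protocadherins, the cell-surface barcode of neurons, had 10 of 56 lower, 1 higher and a median of -0.12. The share lower was near the 15.2% of all genes. Pcdhgc4, Pcdhga6 and Pcdha9 fell by 0.59, 0.61 and 0.60, and Pcdhb7 rose by 0.39. Members of the alpha cluster share their last exons, as do those of the gamma cluster, so counts within each are not independent. Without WT replicate 2 the number lower was 6, and in the fit to all 19 libraries it was 5. Immediate early genes, which report recent firing, showed 5 of 30 higher and 2 lower, beside 16.2% and 15.2% of all genes. The number higher ranged from 1 to 4 without WT replicates 2, 3, 4 or 5 or EZH2nHom replicates 2, 4 or 5.

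**Figure D4:**
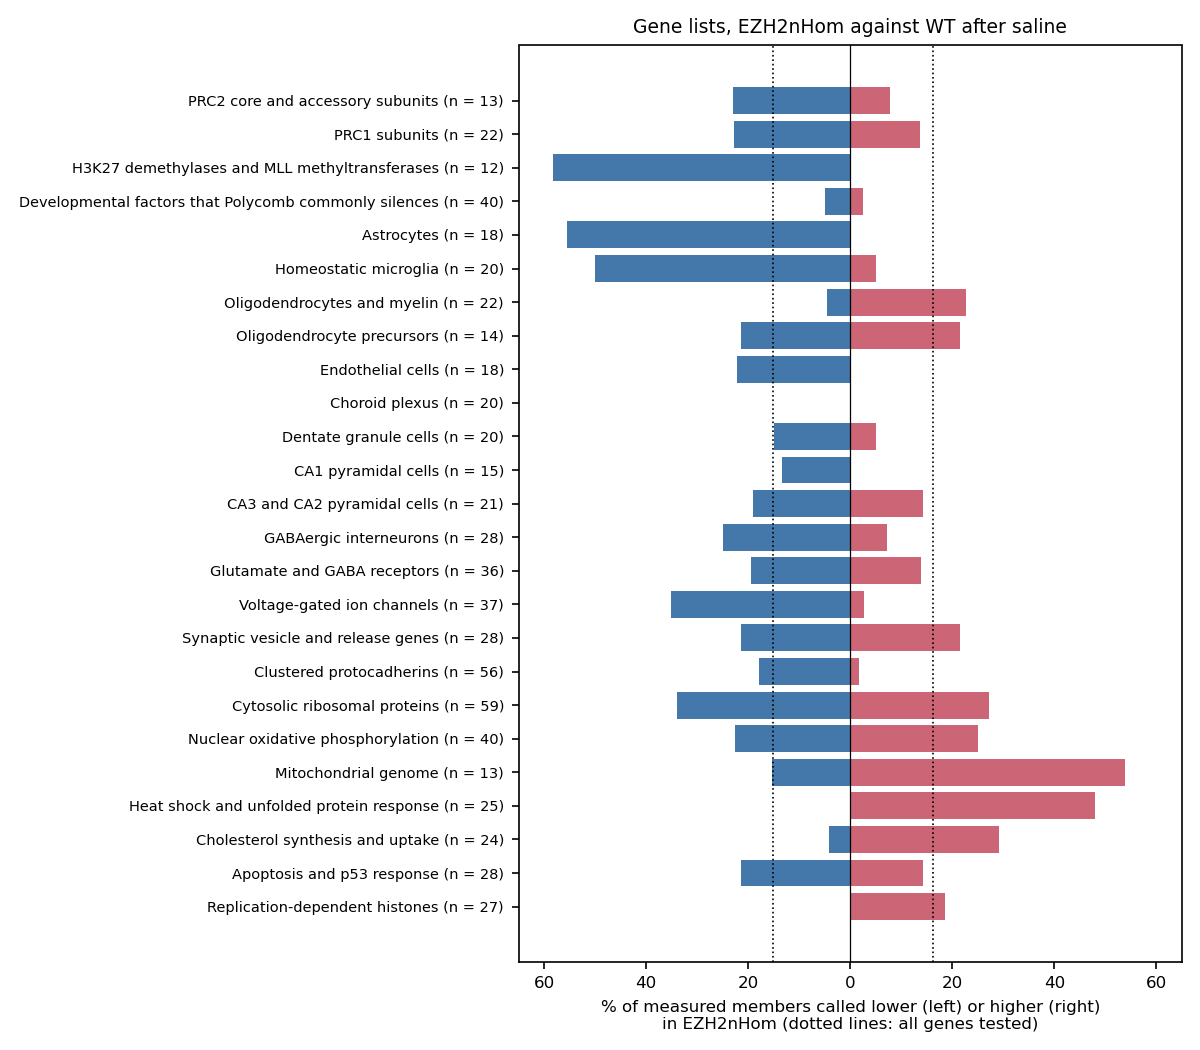
Share of the measured members of 25 gene lists called lower (left, blue) or higher (right, red) in EZH2nHom saline against WT saline, in %, with the number measured in brackets. Dotted lines mark all genes tested, 15.2% lower and 16.2% higher. Demethylase and MLL methyltransferase, astrocyte, microglia and ion channel lists extend to the left, and chaperone and mitochondrial genome lists to the right.

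The type of gene model went with the direction of difference. Models annotated as TEC, loci that still await experimental support, had 439 of 1253 lower (35%) and 14 higher (1.12%), with a median of -0.51. Sense-intronic models had 45 of 116 lower (38.8%) and 5 higher (4.31%), with a median of -0.55. Protein-coding genes leaned the other way, with 18.2% of 14616 higher and 14% lower. TEC and sense-intronic models together took 0.277% to 0.364% of WT reads and 0.199% to 0.247% of EZH2nHom reads, without overlap. Base composition also went with direction. With genes divided into 5 equal classes of GC content, 22.3% were higher and 13.5% lower in the lowest class, and 8.54% were higher and 19.6% lower in the highest. The 355 genes that were in both the longest and the most GC-rich class had a median of -0.28. The part of base composition in single genes was not tested beyond the correction, under which 5577 genes passed. Beside those given above, Cbx6 differed by -0.30, Cacna1i by -0.33, Kcnc1 by -0.38, Syt7 by -0.21 and H2bc18 by 0.75 under it, each more than 1.5 times smaller than without it.

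A few predicted models separated the genotypes almost completely. Gm49369 had 0 reads in all WT libraries and 254 to 1012 in EZH2nHom libraries, at least 223-fold higher against a floor of 3 reads per library. It shares 76.2% of its 32-base words with Ctsd, the lysosomal protease cathepsin D, which it overlaps, and the sum of both was 378 ± 58.4 CPM in WT and 354 ± 53.4 CPM in EZH2nHom (SD, n = 5). Gm49337 had 0 reads in WT and 26 to 216 in EZH2nHom, at least 42.4-fold higher. It overlaps Pik3r3, a regulatory subunit of PI3 kinase, and their sum was 64.0 ± 5.05 and 66.9 ± 8.65 CPM. Gm49450, which overlaps the tubulin gene Tuba1a, read 0 to 0.644 CPM in WT and 25.8 to 86.9 CPM in EZH2nHom. Its sum with Tuba1a was 914 ± 39 CPM in WT and 1428 ± 76.9 CPM in EZH2nHom.

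Another set followed position. Ide, the insulin-degrading enzyme, stood at 55.8, 53.3, 77.2, 54.1 and 53.3 CPM in WT and 126, 124, 96.5, 108 and 83.6 CPM in EZH2nHom. It rose by 0.88 ± 0.14 (SE; edgeR adjusted p = 0.00076), without overlap. Its chromosome 19 neighbours Fgfbp3 and Btaf1 rose by 0.81 and 0.76. The segment is known to vary in copy number among C57BL/6 mice, and after kainate Ide differed by 0.07 between the genotypes (edgeR adjusted p = 0.92). Of 9 measured genes listed as differing between C57BL/6 substrains, 3 were higher, 1 was lower and the median was -0.04. The part of background genotype in these values was not tested. Around Ezh2 itself, on chromosome 6 in GRCm38, 15 of 72 genes tested within 5 Mb passed (20.8%, Wilson 95% interval 13.1% to 31.6%), 9 higher and 6 lower. Chromosome by chromosome, 28.5% to 33.4% of autosomal genes passed, 31.5% of X-linked genes, and 11 of 15 mitochondrial genes.

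The same genotypes after kainate share no library with the saline comparison. There 4 of 18504 genes tested passed (0.0216%) in edgeR's quasi-likelihood test, with 2601 (14.1%) at an unadjusted p under 0.05. In the fit to all 19 libraries, which share 1 estimate of the spread, 1463 of 19234 passed (7.61%). The 4 were Gm29216, Gm49369, Gm49337 and Gm49450, all higher in EZH2nHom after both treatments. The spread between kainate libraries was larger, with a median SE of a log2 difference of 0.212 against 0.106. Of the 5579 genes that passed after saline and were tested after kainate, 4678 (83.9%) differed in the same direction, compared with 60.1% of those that had not passed. Their median size was 0.38 after saline and 0.24, in the saline direction, after kainate. Signal recognition particle RNA was again higher in EZH2nHom kainate libraries, at 10.3% to 21.3% against 3.37% to 11.1% in WT kainate libraries, with overlap. The share of reads on the structural RNA list was 4.53% to 4.99% in EZH2nHom and 4.815% to 7.01% in WT kainate libraries. The share of same-direction genes is a description, since genes are not independent and signal recognition particle RNA moves alike with genotype. Code prefixes also separate the genotypes after kainate, and some WT kainate libraries share a prefix with WT saline libraries.

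For single genes the kainate value ranged from near the saline value to near 0. Ssb differed by 0.82 after kainate against 0.95 after saline, Lars2 by -1.10 against -2.55 and Rpph1 by 1.6 against 3.91. Neurod6 differed by 0.02 after kainate, Csf1r by -0.02 and Rbbp4 by -0.03. Myelin genes that rose after saline were on the other side of 0 after kainate, Mal at -0.20, Mobp at -0.11 and Ermn at -0.18, and none of these kainate values passed. No difference between the 2 genotype effects passed either: 0 of 19234 genes in edgeR's interaction test had an adjusted p under 0.05, with 1685 at an unadjusted p under 0.05.

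**Figure D5:**
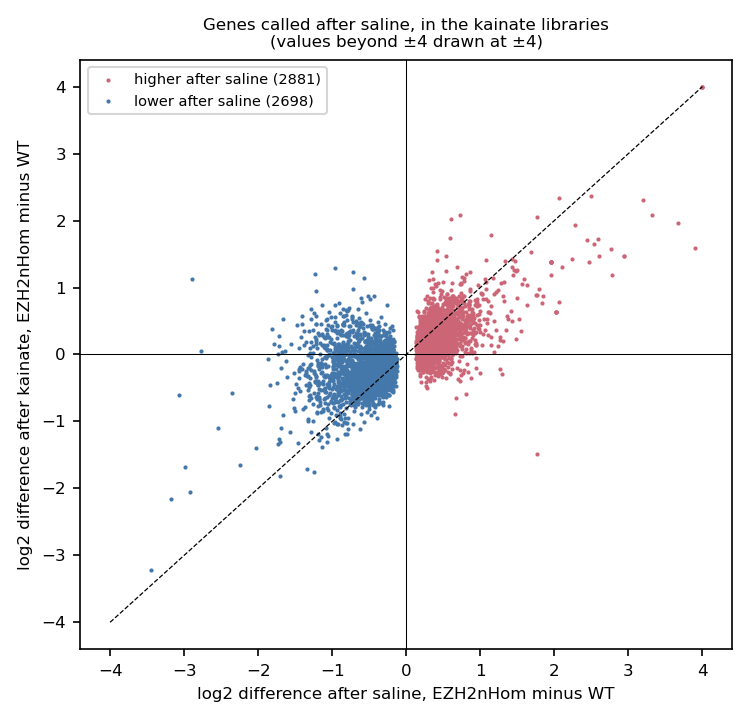
Log2 difference of EZH2nHom against WT after saline (horizontal axis) and after kainate (vertical axis) for the 5579 genes called after saline and tested in both; the dashed line marks equal values. Most points lie in the same-direction quadrants and closer to 0 after kainate.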

How the data were processed

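RNA-seq read counts per Ensembl gene, whole numbers deposited by the authors for 55416 genes, were the input. The submitters' processing notes name mm39, DESeq and DESeq2, and the aligner, counter and strand setting are not given in the sources used here. A table of normalised signal, also deposited by the authors, gave gene symbols. Counts were analysed with edgeR 4.0.16 (quasi-likelihood, robust, two-sided) in R 4.3.3 on the 10 saline libraries. Genes were kept by filterByExpr, libraries scaled by TMM, and p-values adjusted by Benjamini-Hochberg over 17814 genes with a threshold of 0.05. DESeq2 1.42.0 was an alternative. Overlap, length and GC content came from GENCODE M21 (GRCm38), not the files' build, so no coordinates are printed. Named genes are Ezh2, the 10 largest rises and falls that passed with at least 1 CPM and no overlap, and up to 4 members of each list with the smallest p. Other names were chosen after their values were seen. The comparison and lists were chosen with earlier results of these data known. On simulated counts for the saline comparison (200 changed genes per size), 13%, 58% and 88% of genes changed 1.25-, 1.5- and 2-fold were recovered. False calls numbered 2, 6 and 8. Those 200 genes were a far smaller share than the 31.5% that passed in the data, so these rates do not give the recovery there. Intervals and floors cover counting error only. Some genes that this rule names are not reported here.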

Additional observations from a re-analysis of the deposited data

Results flagged for a closer look

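Of 230 groups of 5 libraries checked for the 115 genes named with values, 13 held a library far from the other 4, where chance flags about 1 in 20 groups. In WT, replicate 1 stood apart for Lmnb1 (4.92 CPM, others 4.08 to 4.29), Rpl37rt (4.4, others 5.5 to 5.77), Cox6c (195, others 164 to 170) and Cx3cr1 (62.9, others 59.1 to 60.1). WT replicate 2 was low for Sc5d (69.2, others 78.6 to 79.6), WT replicate 3 high for Ide (77.2, others 53.3 to 55.8) and WT replicate 4 low for Ash1l (222, others 253 to 261). In EZH2nHom, replicate 1 was low for Kcnj10 (45.3, others 53.7 to 56.2) and high for Hspe1 (67.5, others 55.5 to 56.9). EZH2nHom replicate 3 was high for mt-Co2 (38.1, others 4.38 to 13.3) and replicate 4 low for P2ry12 (51.1, others 63 to 67.6). EZH2nHom replicate 5 was low for Upf3b (25.2, others 28.5 to 29.7) and high for Zmat3 (46.7, others 35.2 to 36.6).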

How the results depend on the processing

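The 5604 genes called after saline stayed within 1.5-fold of that number under both DESeq2 alternatives, both other filters, the GC content and length correction and the protein-coding and reduced gene sets. Without each library in turn, the count ran from 4551 to 5666, with 2406 to 2876 higher and 2145 to 2835 lower. It was 2596 (1603 higher, 993 lower) in the fit to all 19 libraries, 3249 (1813, 1436) at an adjusted p under 0.01, 52 (38, 14) with the structural RNA list as a covariate and 697 (328, 369) with all structural RNA models, an alternative chosen after seeing the data. The number lower was 1796 with a covariate from Y-linked genes and 1694 without the 2 libraries with Xist. Ezh2 differed by 0.26 in the DESeq2 Wald test and by 0.20 to 0.30 without each library. Same-numbered libraries did not pair (correlations of deviations 0.043 to 0.415). With the replicate number as a block, 6457 genes passed and Ezh2 differed by 0.25 (adjusted p = 0.0385), and 1 gene passed after kainate. The kainate count was 1463 in the fit to all 19 libraries and 2 to 18 without each library, with 18 without EZH2nHom kainate replicate 2 and 2 without replicate 3 or replicate 4. Of 111 called genes named with values, 98 lost the call with the structural RNA list as a covariate, 80 with all structural RNA models, 29 in the fit to all 19 libraries, 12 without the 2 libraries with Xist, 9 with the covariate from Y-linked genes and 5 without some library, and 0 reversed. The 12 were Epop, Ezhip, Ash1l, Kdm6b, Kmt2d, Foxc2, Dbx2, Cdkn1b, Srp54b, Shank1, Fdft1 and Mpped1. The 29 were Mtf2, Rbbp4, Epop, Ezhip, Rnf2, Kmt2c, Ash1l, Dbx2, Nkx2-2, Lmnb1, Fdft1, Mcl1, Csf1r, Cx3cr1, Tmem119, P2ry12, Ermn, Gad1, Fibcd1, Mpped1, Bok, Grin2a, Gabra5, Kcnc2, Syt7, Snap25, Cplx2, Rims2 and Pcdhb7. The cause of these changes was not tested. Depth limits what can be said of Hox and other genes below the filter.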
